A study of Mus musculus with 26 samples.

Results

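Sensory neurons of the dorsal root ganglion (DRG, the cell clusters beside the spinal cord) keep expressing transcription factors that set their subtype during development, and 10 of these were followed here across 26 mouse RNA-seq libraries in 10 groups. The genes were chosen by name: *Runx1*, *Runx3*, *Isl1*, *Pou4f1*, *Pou4f2*, *Shox2*, *Etv1*, *Prdm12*, *Prrxl1* and *Tlx3*. They are 10 of the 55401 genes in the deposited count tables, all 10 were found, and all 10 passed the filter on low counts in each of the 13 comparisons made. The question was whether injury or culture lowers them, and whether loss of the aryl hydrocarbon receptor gene *Ahr* changes that.

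Conditional knockout (cKO) mice are labelled Ahr f/f with Thy1-CRE(ERT2/EYFP). This means both *Ahr* alleles floxed, plus a tamoxifen-inducible Cre with a yellow fluorescent protein under the neuronal *Thy1* promoter. By this design deletion is meant for cells that use that promoter, and the deletion itself could not be checked in these counts. Control mice, for which the labels name no Cre, carried 1 floxed allele (replicates 1 and 2 of the naive and of the crush group, replicate 1 of the sham mice) or 2 floxed alleles (replicate 3, replicate 2 of the sham mice, all 3 neuron cultures). Lumbar DRG L4 to L6 were collected from naive mice (3 control, 3 cKO) and from mice 1 day after a sciatic nerve crush (3 control, 3 cKO), all of them given 5 daily doses of tamoxifen (100 mg/kg) when 28 weeks old, 5 weeks ahead of collection or crush. A further 2 control and 2 cKO mice had sham surgery and gave ipsilateral (operated side) and contralateral (unoperated side) ganglia 1 day later. Semi-purified neurons were analysed 24 hours after seeding (3 control, 3 cKO). For sham mice and neuron cultures, age and tamoxifen were not given in the sources used here. A library holds the ganglia or neurons labelled with 1 mouse, and both sides of a sham mouse come from that mouse.

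DRG neurons fall into classes with different fibres and targets. *Isl1* (a LIM homeodomain factor) and *Pou4f1* (a POU homeodomain factor also called Brn3a) act in nearly all of them and close the programme of early neurogenesis, and *Pou4f2* is the related factor Brn3b. *Runx1* directs non-peptidergic nociceptors, *Prdm12* is needed to form nociceptors, and *Prrxl1* (also Drg11) and *Tlx3* are homeobox factors of the nociceptive and glutamatergic programmes. *Runx3* and *Etv1* act in proprioceptors, the muscle-sensing neurons, and *Shox2* in touch-sensing neurons that use the receptor *Ntrk2*.

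The promoters below, read from RefSeq on GRCm38.p6, are those of the members with the largest losses after crush in control mice (*Shox2*, *Pou4f2*, *Runx3*) and of *Runx1*, the factor that stood higher in culture. Each is the 250 bases before a transcription start, written 5′ to 3′ on the gene's own strand, in lower case. Capitals mark either GCGTG (the core bound by AhR) or TGTGGT (a core bound by RUNX factors), on either strand, so the reverse complements CACGC and ACCACA are in capitals too. All 10 members matched a RefSeq promoter, 3 of them with several starts, giving 13 windows.
*Shox2*, chr3:66981772-66982021, minus strand: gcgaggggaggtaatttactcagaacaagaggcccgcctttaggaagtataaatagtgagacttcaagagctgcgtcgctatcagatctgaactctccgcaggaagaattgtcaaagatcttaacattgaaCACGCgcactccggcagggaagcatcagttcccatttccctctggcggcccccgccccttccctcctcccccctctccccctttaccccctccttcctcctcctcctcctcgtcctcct
*Pou4f2*, chr8:78436648-78436897, minus strand: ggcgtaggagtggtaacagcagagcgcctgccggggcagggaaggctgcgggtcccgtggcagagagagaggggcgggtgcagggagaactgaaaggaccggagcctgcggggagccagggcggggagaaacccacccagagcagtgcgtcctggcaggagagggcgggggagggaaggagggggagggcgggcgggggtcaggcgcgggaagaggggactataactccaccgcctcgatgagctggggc
*Runx3*, first start, chr4:135120395-135120644, plus strand: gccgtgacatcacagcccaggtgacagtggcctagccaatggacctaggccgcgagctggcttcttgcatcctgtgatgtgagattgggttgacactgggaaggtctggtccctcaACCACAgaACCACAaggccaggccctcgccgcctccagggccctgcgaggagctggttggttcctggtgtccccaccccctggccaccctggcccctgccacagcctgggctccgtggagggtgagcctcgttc
*Runx3*, second start, chr4:135152295-135152544, plus strand: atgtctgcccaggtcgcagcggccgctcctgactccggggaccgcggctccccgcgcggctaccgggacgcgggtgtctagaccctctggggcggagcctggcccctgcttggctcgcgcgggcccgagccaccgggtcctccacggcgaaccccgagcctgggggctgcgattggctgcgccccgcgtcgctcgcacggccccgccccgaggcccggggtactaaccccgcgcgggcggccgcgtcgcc
*Runx1*, first start, chr16:92826075-92826324, minus strand: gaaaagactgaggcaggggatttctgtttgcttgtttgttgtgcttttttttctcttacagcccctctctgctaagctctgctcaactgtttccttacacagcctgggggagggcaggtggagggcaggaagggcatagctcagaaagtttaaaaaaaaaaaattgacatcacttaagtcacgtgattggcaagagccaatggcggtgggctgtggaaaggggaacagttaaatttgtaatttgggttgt
*Runx1*, second start, chr16:92697330-92697579, minus strand: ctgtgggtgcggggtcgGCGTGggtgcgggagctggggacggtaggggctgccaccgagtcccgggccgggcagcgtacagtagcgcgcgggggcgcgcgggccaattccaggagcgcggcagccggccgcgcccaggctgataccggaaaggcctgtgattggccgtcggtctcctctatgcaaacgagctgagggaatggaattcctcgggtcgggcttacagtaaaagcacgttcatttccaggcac

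The AhR core was found in 5 of the 13 member windows, against 28.2% of 32851 promoter windows of the same length. The RUNX core was in 3 of 13 (14% of all windows), including 2 matches at the first *Runx3* start. Matches to TGANTCA, the site of the injury-induced AP-1 factors, were in 0 of 13 (6.75% of all windows). GCGTG and TGTGGT can overlap by 2 bases, as they do at the first *Etv1* start, which counts for both. These are letter matches in short windows and no binding was measured. The 13 windows ranged from 1 to 47 CpG dinucleotides; the second *Runx3* start had 38 and its first start 8, and the *Pou4f2* window had 17.

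Library totals were 20169388 to 23540375 counts in naive and crush ganglia, 39306414 to 58751270 in sham ganglia and 25299938 to 88180611 in neurons. In all 26 libraries the members had between 34 counts (*Runx3* in neuron control replicate 1, the shallowest culture) and 12196 counts (*Runx1*). Levels are given as CPM (counts scaled to library size) on a TMM scale common to all libraries. Pan-neuronal markers were present in every group, with 17 of 17 matched genes above 0 and a summed level of at least 6288 CPM in every library. The injury marker *Atf3*, a stress-induced transcription factor, separated crush (501 to 737 CPM) from naive ganglia (16.3 CPM at most). *Ahr* itself did not check the genotype label (18 to 22.8 CPM in naive control, 21.4 to 26.8 CPM in naive cKO), and these counts cover the whole gene rather than the deleted part. *Thy1* separated them (674 to 760 against 1194 to 1336 CPM). The sex read from transcripts differed from the labelled one in 2 libraries of crush ganglia, control replicate 3 and cKO replicate 2, and results with and without them are given below.

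In the GENCODE M21 annotation of GRCm38 the general factors are *Isl1* (ENSMUSG00000042258.13) at chr13:116298281-116309689, minus strand, *Pou4f1* (ENSMUSG00000048349.9) at chr14:104461676-104467999, minus strand, and *Pou4f2* (ENSMUSG00000031688.4) at chr8:78433010-78436645, minus strand. The nociceptor factors are *Runx1* (ENSMUSG00000022952.17) at chr16:92601466-92826149, minus strand, *Prdm12* (ENSMUSG00000079466.2) at chr2:31640037-31655795, plus strand, *Prrxl1* (ENSMUSG00000041730.14) at chr14:32599407-32649246, plus strand, and *Tlx3* (ENSMUSG00000040610.7) at chr11:33200752-33203589, minus strand. The factors of myelinated neurons are *Runx3* (ENSMUSG00000070691.10) at chr4:135120652-135177990, plus strand, *Shox2* (ENSMUSG00000027833.16) at chr3:66971727-66981771, minus strand, and *Etv1* (ENSMUSG00000004151.17) at chr12:38779380-38870484, plus strand. The tables hold 1 value per gene over the whole gene, so isoforms are not separated.

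In naive control ganglia, *Pou4f1* and *Prdm12* were the most abundant members per kilobase of exon (53 and 60.5 CPM per kb, 3 libraries), followed by *Prrxl1* (43.7) and *Tlx3* (36). *Isl1* stood at 23.1 CPM per kb, and the remaining 5 members lay between 3.76 (*Runx3*) and 11.2 (*Etv1*) CPM per kb. Per kilobase of gene span, introns included, the order changed: *Pou4f1* led with 39.2 CPM per kb and *Prdm12*, at 9.49, came after *Tlx3* (19.5). In the neuron control cultures *Tlx3* led per kilobase of exon (32.9), ahead of *Pou4f1* (28.5) and *Prdm12* (25).

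**Figure D1:**
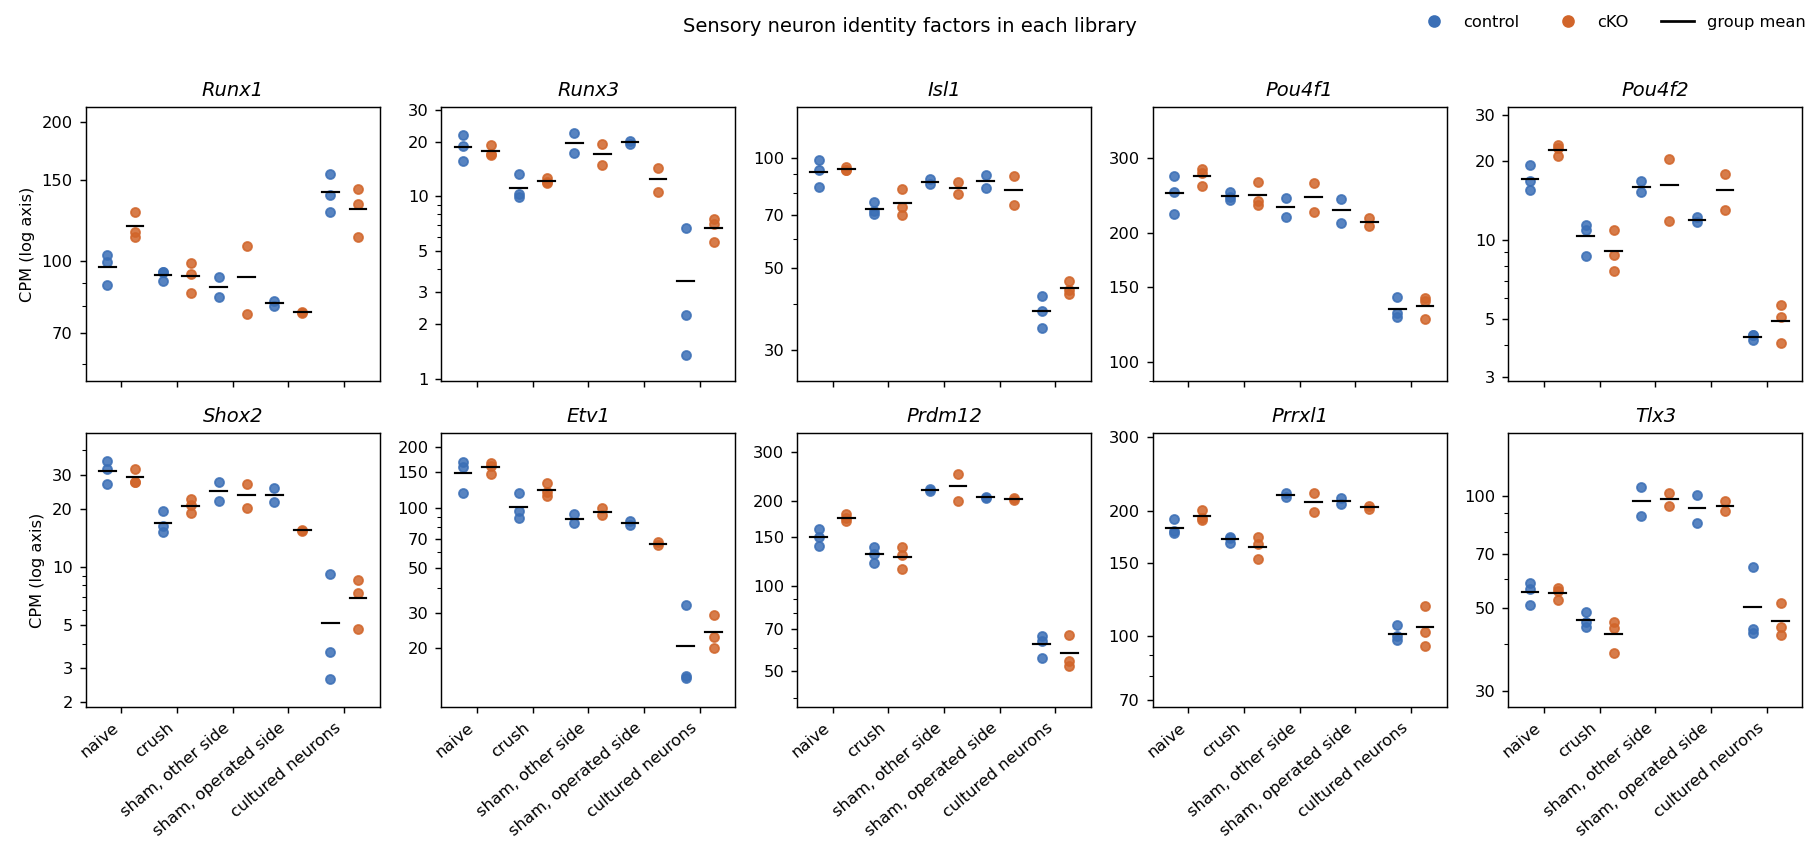
Level of each identity factor in CPM (log axis, a separate scale in each panel) in every library, by condition and genotype; points are libraries and short lines are group means. All 6 culture libraries lie below all 20 ganglion libraries except for *Runx1* and *Tlx3*. The share of all genes with this placing was not counted. Crush libraries lie below naive ones of the same genotype for most factors.

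Sciatic nerve crush lowered 6 of the 10 factors in control ganglia within 1 day and raised 0. The factors of large myelinated neurons and *Pou4f2* lost most: *Shox2* fell to 54% of its naive level, *Runx3* to 59.2%, *Pou4f2* to 60.2% and *Etv1* to 67.8%. *Isl1* (79.6%) and *Tlx3* (84.2%) fell less, and *Pou4f1* was at 98.7% of naive. Over all 21261 genes tested, 8.73% were called lower and 12.9% higher (21.6% in either direction; edgeR's quasi-likelihood test, Benjamini-Hochberg adjusted p under 0.05). The median log2 change was -0.29 over the members and -0.018 over all genes. All 10 members had a negative sign, and in 8 of 10 every crush library lay below every naive one, as in 17.5% of all genes.

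*Shox2* measured 26.9, 35.3 and 32 CPM in the 3 naive control libraries and 16.3, 15.1 and 19.5 CPM after crush. The groups did not overlap, and the log2 change was -0.89 ± 0.12 (SE, n = 3 per group, edgeR adjusted p = 3.43e-04). *Shox2* shares 382 bases with *Rsrc1* on the other strand, and the tables count reads of both strands for both genes. *Rsrc1* stood at 63.5 CPM in naive and 60.6 CPM in crush controls, against a fall of *Shox2* to 54%.

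*Runx3* measured 15.6, 21.7 and 19 CPM in naive controls and 10.3, 9.87 and 13.2 CPM after crush, again with no overlap (log2 change -0.76 ± 0.13 SE, edgeR adjusted p = 0.00174). *Etv1*, which in proprioceptors guides the link to motor neurons, measured 119, 169 and 159 CPM before and 96.1, 88.8 and 118 CPM after crush. Its groups came within 1 CPM of each other without overlapping, at -0.56 ± 0.13 (SE, edgeR adjusted p = 0.0105).

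*Pou4f2* measured 16.8, 19.3 and 15.6 CPM in naive and 8.71, 10.9 and 11.4 CPM in crush controls (log2 change -0.73 ± 0.14 SE, edgeR adjusted p = 0.00251). Its relative *Pou4f1* measured 222, 272 and 249 CPM in naive and 243, 250 and 239 CPM in crush controls (-0.02 ± 0.08 SE, edgeR adjusted p = 0.89), and its groups overlapped. A difference between the POU factors was not tested. *Isl1*, the other general factor, went from 83.1, 98.3 and 92.4 CPM to 70.3, 71.7 and 75.6 CPM (-0.33 ± 0.07 SE, edgeR adjusted p = 0.00773).

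Of the 4 nociceptor factors, *Tlx3* alone was called in control mice. It measured 56.3, 58.4 and 51 CPM before and 44.6, 48.7 and 46 CPM after crush (-0.25 ± 0.08 SE, edgeR adjusted p = 0.0381). This call is fragile: it was kept in 9 of 17 other settings and was lost when any of 5 single libraries was left out (naive replicate 1 or 2, or crush replicate 1, 2 or 3, adjusted p = 0.0517 to 0.114). *Prdm12* measured 139, 160 and 150 CPM before and 121, 138 and 130 CPM after (-0.20 ± 0.08 SE, edgeR adjusted p = 0.0787). *Prdm12* and its antisense neighbour *Gm13425* share 553 bases, and *Gm13425* also stood lower after crush (183 and 134 CPM), so their reads cannot be fully told apart. *Prrxl1* (-0.10 ± 0.06 SE, edgeR adjusted p = 0.279) and *Runx1* (-0.06 ± 0.08 SE, edgeR adjusted p = 0.661) were not called.

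In cKO ganglia, crush lowered 8 of the 10 factors and raised 0, where 7.89% of all 21261 genes were called lower (18.6% in either direction). The median change was -0.39 over the members and -0.005 over all genes. *Pou4f2* showed the largest change, from 23.1, 21 and 22.6 CPM to 10.9, 7.64 and 8.79 CPM, which is 40.6% of naive (-1.30 ± 0.14 SE, n = 3 per group, edgeR adjusted p = 6.22e-05). All 3 crush libraries lay well below all 3 naive ones.

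The nociceptor factors were all called in this genotype. *Prdm12* went from 180, 170 and 174 CPM to 129, 115 and 138 CPM (-0.47 ± 0.08 SE, edgeR adjusted p = 0.00115). *Runx1*, the regulator of non-peptidergic identity, went from 128, 113 and 116 CPM to 93.7, 85.5 and 99.2 CPM (-0.37 ± 0.08 SE, edgeR adjusted p = 0.00455). *Tlx3* (-0.38, to 76.8%) and *Prrxl1* (-0.26, to 83.5%) fell as well, with groups that did not overlap.

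Among the myelinated-class factors, *Runx3* fell to 68.1% of naive cKO (-0.55 ± 0.13 SE, edgeR adjusted p = 0.0118) and *Shox2* to 70.5% (-0.50 ± 0.12 SE, edgeR adjusted p = 0.0125). *Etv1* measured 162, 147 and 168 CPM before and 133, 115 and 120 CPM after crush, without overlap but also without a call (-0.39 ± 0.13 SE, edgeR adjusted p = 0.0602). It was called in 3 of 17 other settings: DESeq2 (adjusted p = 0.0223), labelled sex as a covariate (0.0476) and only the groups compared (0.0112). *Isl1* fell to 80.1% (-0.32) and *Pou4f1* stood at 88.9% (-0.17 ± 0.08 SE, edgeR adjusted p = 0.157). In 9 of 10 members the groups did not overlap, as in 16.4% of all genes going down.

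Sex was unevenly spread in this cKO comparison. All 3 naive cKO libraries are female by their transcripts, as is crush cKO replicate 1, while crush cKO replicates 2 and 3 are male. The 1 female crush library lay below every naive cKO library in 10 of 10 members, as did replicate 2, and replicate 3 in 9 of 10, against 31.4%, 34.2% and 31.8% of all 21261 genes for replicates 1, 2 and 3. With sex by transcripts as a covariate the number called fell from 8 to 3 (*Pou4f2*, *Prdm12* and *Tlx3*), with a median change over the members of -0.40 against -0.39 without it, and over all genes from 3962 to 1414. Without the 2 libraries of mismatched sex 6 members were called. In control mice the same settings gave 6 of 10 (22.3% of all genes called) and 5 of 10 (18.5%). All naive and crush control libraries are female by their transcripts, so that comparison held no sex difference for the covariate to adjust.

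The difference between genotypes in the response was tested itself, as an interaction. It was called for 0 of 10 members and for 0% of all 21261 genes (edgeR), and DESeq2 also called 0 members; 627 genes (2.95%) had an unadjusted p under 0.05. The 4 members past that unadjusted mark were *Runx1* (-0.32), *Pou4f2* (-0.57), *Prdm12* (-0.27) and *Shox2* (0.38), all at an edgeR adjusted p of 1. Without crush cKO replicate 1 the interaction was called for 8 genes and 0 members. A factor called in 1 genotype only is thus not shown to respond differently.

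**Figure D2:**
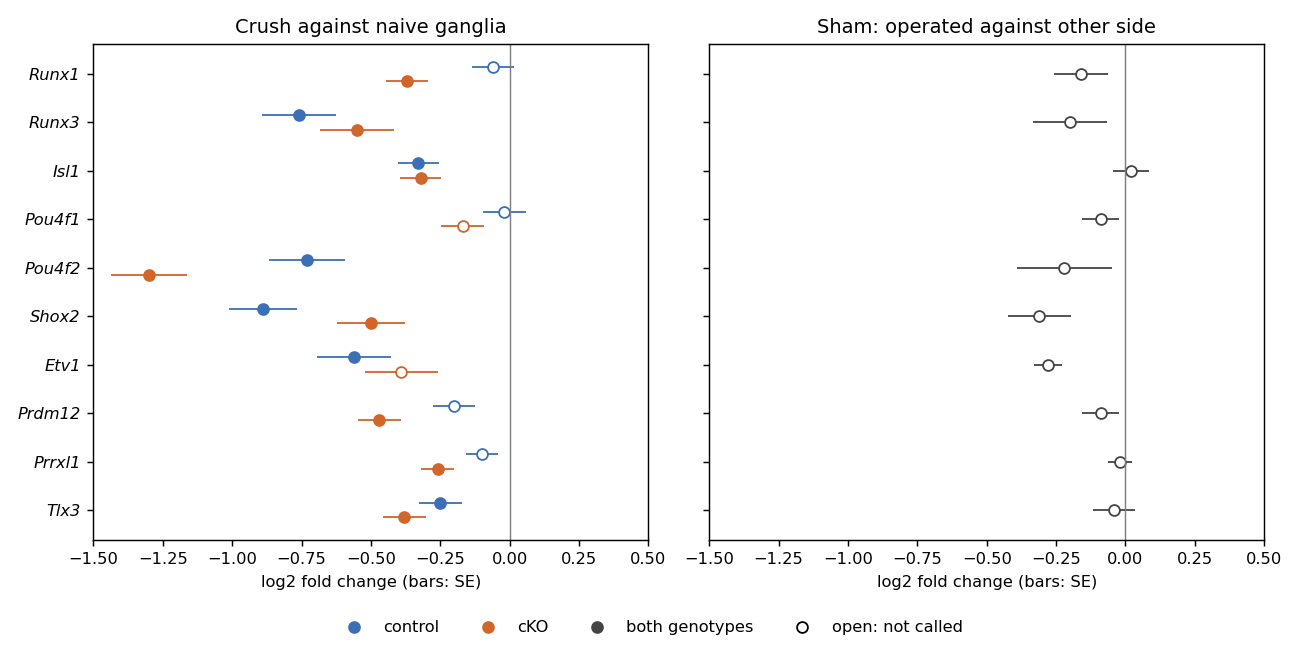
Log2 fold change with SE of each factor after crush (left, control and cKO separately) and on the operated side after sham surgery (right, both genotypes together). Filled symbols passed an adjusted p of 0.05: 6 factors in control and 8 in cKO mice after crush, and 0 after sham surgery.

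Pan-neuronal markers did not fall with the identity factors. The 17 pan-neuronal markers summed to 8099 to 9251 CPM in naive and 8487 to 9682 CPM in crush ganglia, and 2 of 17 were called higher and 0 lower in control mice (2 and 1 in cKO). Scaled to these markers in place of the library, the same numbers of members were called, 6 and 8, with *Shox2* at -0.94 and *Runx3* at -0.80 in control mice; this scaling called 8.55% of all genes lower in control and 6.03% in cKO mice. Schwann cell markers were called in 0 of 8, and macrophage markers in 0 of 10, in either genotype. In control mice, satellite glia markers had 1 higher and 2 lower of 9, endothelial markers 1 lower of 8, fibroblast and mural markers 1 higher of 8 and markers of other immune cells 1 lower of 11. In cKO mice 1 of 9 satellite glia and 2 of 4 red blood cell markers were called lower. The part of these cell types in the members' changes was not tested. In whole ganglia, fewer cells of a type and less RNA per cell cannot be told apart.

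Other genes of the same neurons moved in both directions. Of 35 further sensory neuron transcription factors tested, 12 were called lower and 6 higher in control mice (12 and 4 in cKO, median -0.18 and -0.07). *Mafa*, a factor of mechanoreceptors, fell to 42.5% in control mice (-1.23), and *Isl2*, the paralogue of *Isl1*, to 68.4% (-0.55). *Etv5*, an ETS factor related to *Etv1*, rose to 169% (0.76) and the nuclear receptor gene *Rora* to 159% (0.67).

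Of 16 genes of myelinated mechanoreceptors and proprioceptors, 6 were called lower and 1 higher in control mice (4 and 2 in cKO). *Kcns1*, a potassium channel subunit, fell to 62.4% (-0.68) and *Pvalb*, the calcium buffer that marks proprioceptors, to 78.7% (-0.35), while the GDNF family receptor *Ret* rose to 148% (0.57). Non-peptidergic nociceptor genes split evenly in control mice, 8 called higher and 8 lower of 20 (4 and 10 in cKO). *Gfra1*, a co-receptor of *Ret*, rose to 251% (1.33), and the itch receptor *Mrgpra3* fell to 52.3% (-0.94). Peptidergic genes had 3 higher and 2 lower of 11 (3 and 3 in cKO).

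Sham surgery gave no call among the members: 0 of 10 differed between the operated and the other side, both genotypes together, where 1 of 22160 genes (0.00451%) was called in either direction. That gene was the neuropeptide *Gal*. The number of genes called depended on the setting: 85 without ipsilateral cKO replicate 1, 9 without ipsilateral cKO replicate 2, 200 with DESeq2 and 381 with no filter. At an unadjusted p under 0.05 there were 1675 genes (7.56%), among them *Etv1* and *Shox2*. *Etv1* measured 83.6 and 92.7 CPM on the other side and 81.6 and 85.5 CPM on the operated side in control mice, and 91.5 and 99.2 against 65.1 and 67.4 CPM in cKO mice. It was thus lower on the operated side within each of the 4 mice, although the control libraries overlapped as groups. *Shox2*, *Pou4f1* and *Tlx3* were also lower within all 4 mice on this CPM scale (4 of 10 members, against 10.2% of all genes, and 0 of 10 higher, against 7.36%); the fitted change of *Tlx3* was -0.04. For *Etv1* over both genotypes the change was -0.28 ± 0.05 (SE, n = 4 per side, edgeR adjusted p = 0.247), and DESeq2 (adjusted p = 0.00324) and the fit with no filter (0.00831) called it. With the mouse as a block it was -0.27 (edgeR adjusted p = 0.466).

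*Shox2* differed by -0.31 ± 0.115 (SE, edgeR adjusted p = 0.6), and 9 of 10 members had a negative sign, with a median of -0.13 over the members and 0.008 over all genes. The operated side was not free of injury signal: *Atf3* stood at 134 and 89.9 CPM in control and 44.5 and 190 CPM in cKO mice, against 11 to 13.4 CPM on the other side. What part this has in the values of *Etv1* and *Shox2* was not tested. Crush and sham were deposited in separate tables and their changes were not tested against each other.

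The cKO and control genotypes did not differ by a call in any member in any of the 5 kinds of sample. Across all genes, the edgeR fit above called at most 2 (0.00941% in naive and in crush ganglia, 0.00451% in ipsilateral and 0% in contralateral sham ganglia and in neurons), and 1232, 579, 1682, 1160 and 1863 genes had an unadjusted p under 0.05 in naive, crush, ipsilateral, contralateral and neuron libraries. Other settings called more genes: 153 (DESeq2), 626 (no filter), 98 (without cKO replicate 1) and 30 (without cKO replicate 2) in ipsilateral ganglia, 31 (DESeq2) and 59 (no filter) in contralateral ganglia, 163 (DESeq2), 27 (no filter), 15 (without control replicate 1), 13 (pan-neuronal scaling), 6 (without control replicate 3) and 5 (replicate block) in neurons, and 15 after crush without crush cKO replicate 1. The 3 members described below were the only ones called in any of these. In naive ganglia 3 members stood higher in every cKO library than in every control, where this held for 5.79% of all genes. *Runx1* measured 128, 113 and 116 CPM in cKO and 89, 99.6 and 103 CPM in control mice (0.30 ± 0.08 SE), *Prdm12* was at 118% (0.24 ± 0.08 SE) and *Pou4f2* at 130% (0.38 ± 0.13 SE). All 3 had an edgeR adjusted p of 0.754.

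After crush the genotypes overlapped in 10 of 10 members, where 4.71% of all genes were apart with cKO higher and 4.02% with cKO lower. *Runx1*, for example, measured 90.5, 94.9 and 94.7 CPM in control and 93.7, 85.5 and 99.2 CPM in cKO ganglia. The naive cKO libraries are shared by this genotype comparison and by the crush comparison in cKO mice, so the high naive values and the larger fall after crush of *Runx1*, *Prdm12* and *Pou4f2* rest on the same libraries.

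In ipsilateral sham ganglia, with 2 mice per genotype, 0 of 10 members were called, and the largest fitted differences to lower values in cKO were those of the 3 myelinated-class factors. *Runx3* measured 10.6 and 14.4 CPM against 20.2 and 19.5 CPM (-0.63 ± 0.19 SE), *Shox2* 15.5 and 15.3 against 21.5 and 25.6 CPM (-0.57 ± 0.16 SE) and *Etv1* 65.1 and 67.4 against 81.6 and 85.5 CPM (-0.30 ± 0.07 SE). The groups did not overlap in these 3 and, by smaller amounts, in 3 further members, 6 of 10 going down against 22.3% of all genes, and *Pou4f2* was apart in the other direction (0.40, 13.5% of all genes). EdgeR's adjusted p was 0.528, 0.528 and 0.498. With no filter on low counts the same 3 were called (adjusted p = 0.0147, 0.0135 and 0.0433), among 626 of 35021 genes (509 higher and 117 lower). In contralateral ganglia of the same mice they differed by -0.21, -0.07 and 0.11, with overlap.

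In cultured neurons, 0 members were called between genotypes. *Isl1* measured 34.4, 38.2 and 41.9 CPM in control and 42.4, 43.7 and 46.2 CPM in cKO cultures, without overlap, as in 7.07% of all genes going up (0.20 ± 0.08 SE, edgeR adjusted p = 0.602). *Runx3* had the largest fitted difference, 0.93 ± 0.47 (SE, edgeR adjusted p = 0.638), and its groups overlapped. Over the other settings it ranged from 0.49 to 1.85, the latter without control replicate 3 (edgeR adjusted p = 0.0613), and none was called.

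Most of the factors were lower in cultured neurons than in naive ganglia. The naive libraries are the reference here and for crush, so the sizes of both changes share their controls. Against naive ganglia, neurons of control mice had 8 of 10 members lower and 1 higher, and neurons of cKO mice 8 lower and 0 higher. This has to be read against a shift of most of the transcriptome: 41.6% of 22185 genes were called lower and 41.7% higher in control (83.2% in all), and 40.1% and 42% in cKO (82.1% in all). The median over members was -1.25 and -1.23, against -0.016 and 0.015 over all genes. The table and the culture cannot be told apart in this comparison, since neurons and naive ganglia were deposited in separate tables.

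In control cultures the myelinated-class factors lost most. *Etv1* measured 14.6, 14.2 and 32.6 CPM in control cultures against 119, 169 and 159 CPM in naive ganglia, which is 14% (-2.84 ± 0.29 SE, edgeR adjusted p = 1.35e-06). *Shox2* measured 2.62, 3.6 and 9.14 CPM, which is 16.9% of naive (-2.56 ± 0.36 SE, edgeR adjusted p = 2.76e-05), and *Runx3* 1.35, 2.23 and 6.71 CPM, which is 19.1% (-2.39 ± 0.40 SE, edgeR adjusted p = 1.27e-04). In all 3 genes every culture was below every ganglion of either table. The same held for *Isl1*, *Pou4f1*, *Pou4f2*, *Prdm12* and *Prrxl1*, and the share of all genes was not counted.

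In cKO cultures the same genes were at 15.1% (*Etv1*, 20.1, 22.7 and 29.3 CPM), 23.6% (*Shox2*, 4.74, 7.27 and 8.57 CPM) and 38.2% (*Runx3*, 5.65, 7.06 and 7.49 CPM) of naive cKO ganglia. *Pou4f2* was at 25.1% in control (4.36, 4.15 and 4.36 CPM, 3.99-fold lower) and 22.3% in cKO cultures (5.67, 4.05 and 5.09 CPM, -2.17 ± 0.12 SE), with adjusted p of 1.74e-08 and 6.44e-09 by edgeR.

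*Isl1*, *Pou4f1*, *Prdm12* and *Prrxl1* kept between 33% and 56% of their naive level. *Isl1* was at 42.3% and 47.4% in control and cKO neurons (-1.24 and -1.08), *Pou4f1* at 54.1% and 49.8% (-0.89 and -1.01), *Prdm12* at 41.7% and 33% and *Prrxl1* at 56% and 54.1% (-0.84 and -0.89). All 8 changes were called. *Rsrc1*, which shares reads with *Shox2*, was also lower in culture (36.7 CPM in control), as was *Gm13425* beside *Prdm12* (53.2 CPM).

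*Tlx3* behaved differently against the 2 references. It measured 64.4, 43 and 43.9 CPM in control cultures and 51.6, 42.3 and 44.6 CPM in cKO cultures, against 51 to 58.4 CPM in naive ganglia, and was not called (-0.13 ± 0.14 SE and -0.25 ± 0.14 SE, edgeR adjusted p = 0.413 and 0.112). Only the cKO groups were free of overlap, by about 1 CPM. Without neuron control replicate 1, its highest culture, the control change was -0.33 and was called (adjusted p = 0.00479). In cKO cultures *Tlx3* was called lower in 2 of 14 other settings, limma-trend on FPKM (-0.34, adjusted p = 0.0452) and only the groups compared (-0.26, adjusted p = 0.014). Scaled to pan-neuronal markers, *Tlx3* was at 114% and 105% of naive (0.19 and 0.07, edgeR adjusted p = 0.215 and 0.669). Against contralateral sham ganglia (88.3 to 106 CPM) it was called lower, at 50.8% in control (-0.98 ± 0.17 SE, edgeR adjusted p = 5.11e-04) and 47.3% in cKO (-1.08 ± 0.17 SE, edgeR adjusted p = 2.72e-04).

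*Runx1* was the exception, higher in culture. Control cultures measured 154, 139 and 128 CPM against 89, 99.6 and 103 CPM in naive ganglia (146%, 0.55 ± 0.10 SE, edgeR adjusted p = 2.49e-04). The cKO cultures measured 143, 113 and 133 CPM against 128, 113 and 116 CPM, with overlap and no call (0.13 ± 0.10 SE, edgeR adjusted p = 0.246). Against contralateral sham ganglia *Runx1* was called higher in both genotypes, 157% in control (0.65 ± 0.15 SE, edgeR adjusted p = 0.00285) and 141% in cKO (0.49 ± 0.15 SE, edgeR adjusted p = 0.0136). The cKO call rests on contralateral cKO replicate 2 (77.1 CPM): without it the change was 0.27 (adjusted p = 0.153). *Runx1* shares 7292 bases with *Gm26626* on the other strand. *Gm26626* averaged 0.877 CPM in naive and 7.35 CPM in cultured controls, and 1.21 and 7.4 CPM in cKO. The reads counted for both genes were not separated.

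*Runx1* is also expressed outside neurons, in blood and in cells that give rise to it. Of 8 endothelial markers 8 were called higher in neurons against either reference and genotype, with sums of 1282 to 1907 CPM in neurons, 134 to 229 CPM in naive and 105 to 181 CPM in contralateral ganglia. The endothelial adhesion gene *Pecam1*, for example, stood at 1057% of naive in control neurons. The 11 markers of neutrophils, T, B and mast cells summed to 12.3 to 120 CPM in neurons and 119 to 658 CPM in naive ganglia, and haemoglobin genes to 4.7 to 24.6 CPM against 241 to 566 CPM. The 10 macrophage markers summed to 175 to 195 CPM in neurons and 170 to 269 CPM in naive ganglia, and went both ways: 8 were called lower and 2 higher in control (6 and 2 in cKO, median -2.47 and -1.89). The complement genes *C1qa* and *C1qc* fell to 0.52% and 0.346% of naive in control neurons, while *Cd68* (329%) and *Cx3cr1* (197%) rose. The part of these cells in the *Runx1* level was not tested.

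Against contralateral sham ganglia, a comparison within 1 table, 9 of 10 members were lower and *Runx1* was higher in both genotypes. Among all 23958 genes, 35.6% were called lower and 33.1% higher in control (68.7% in all), and 33.8% and 32.2% in cKO (66.1% in all). The sham mice were male and the neuron donors female by label and by transcripts, so sex and culture cannot be told apart here. *Runx3* was at 17.8% in control (-2.49 ± 0.46 SE; -3.41 to -1.43 over 13 other settings, all called) and 39.6% in cKO (-1.34 ± 0.45 SE, edgeR adjusted p = 0.0223), *Shox2* at 21% (-2.25; -2.97 to -1.37 over the other settings) and 29.3%, *Etv1* at 23.1% (-2.11; -2.64 to -1.24) and 25.4%, *Pou4f2* at 26.3% and 30.6% and *Prdm12* at 27.7% and 25.6%. The cKO call of *Runx3* was lost with DESeq2 (adjusted p = 0.06), without contralateral cKO replicate 2 (0.123), without neuron cKO replicate 1 (0.066) and with scaling to pan-neuronal markers (-0.43, 74%, adjusted p = 0.342).

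The 2 sets of ganglia used as reference were themselves unlike. *Tlx3* averaged 55.2 CPM in naive and 97.4 CPM in contralateral control ganglia, 1.76 times as much, *Prdm12* 1.46 times as much and *Etv1* 0.591 times. Pan-neuronal markers summed to 8099 to 9251 CPM in naive and 12231 to 13453 CPM in contralateral ganglia. These differences between tables were not tested, and sex, table and surgery cannot be told apart in them.

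**Figure D3:**
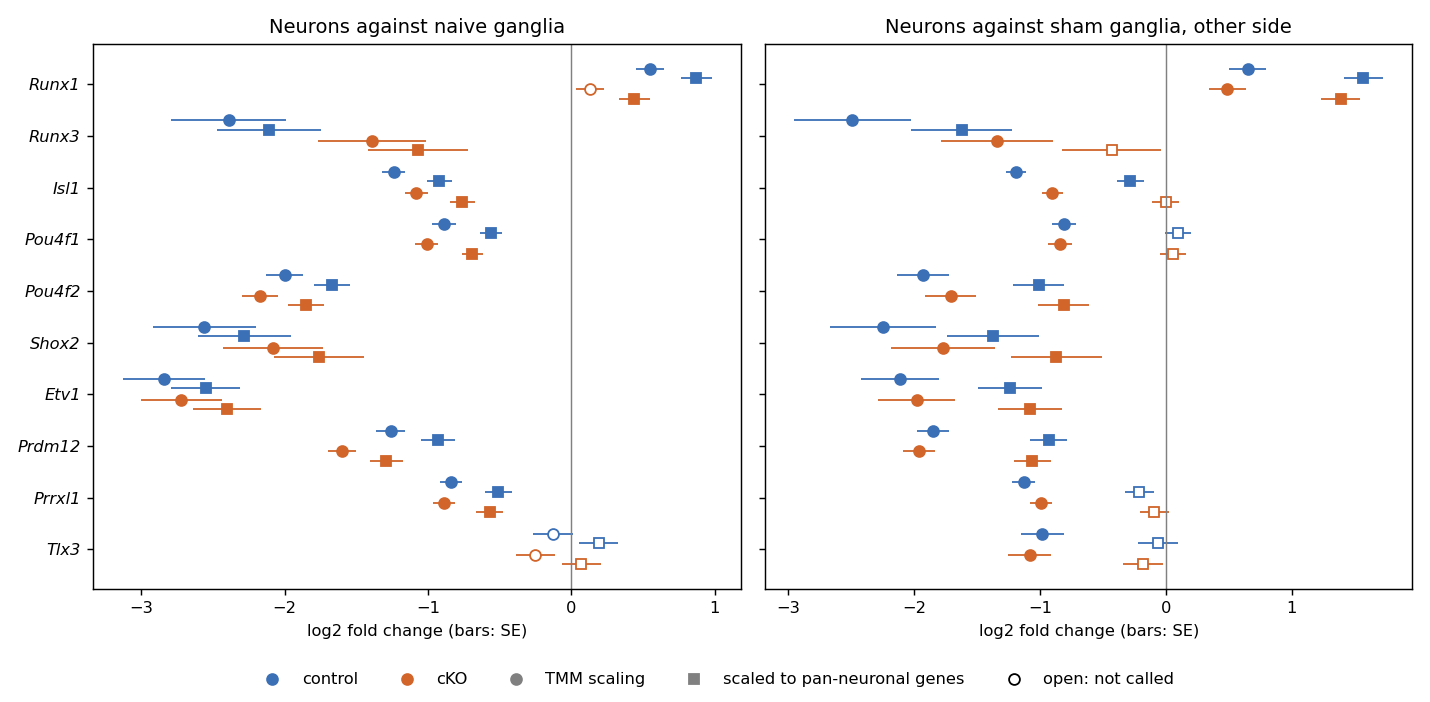
Log2 fold change with SE in cultured neurons against naive ganglia (left) and contralateral sham ganglia (right), for control and cKO mice. Circles use the TMM scale and squares the summed pan-neuronal markers; filled symbols passed an adjusted p of 0.05. *Runx1* lies to the right of 0 throughout, and the squares of *Pou4f1*, *Prrxl1* and *Tlx3* in the right panel are near 0 and open.

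The neuron libraries held less pan-neuronal RNA than the ganglia: the 17 markers summed to 6288 to 7384 CPM, and 11 of 17 were called lower and 4 higher than in naive controls (16 and 0 against contralateral controls). Scaled to these markers, the same 8 members stayed lower than in naive ganglia in both genotypes, with *Etv1* at 17.1% and 18.9%, and *Runx1* was higher in both (182% and 136%). This scaling called 48.4% of all genes higher and 32.4% lower in control, and 49% and 30.7% in cKO, with a median over all genes of 0.30 and 0.33 against -0.93 and -0.91 over the members. Against contralateral ganglia it left 7 members called in control (6 lower) and 5 in cKO (4 lower), where 63.4% of all genes were called higher and 10.2% lower in control, and 62.5% and 7.83% in cKO. The median over all genes was then 0.90 and 0.86, and over the members -0.60 and -0.31. *Etv1*, *Pou4f2*, *Shox2* and *Prdm12* remained lower in both genotypes, at 38.6% to 57.2%.

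Under that scaling *Pou4f1* was level with contralateral ganglia (107% in control, adjusted p = 0.395, and 105% in cKO, adjusted p = 0.589), as were *Prrxl1* (86.4% and 93.8%) and *Tlx3* (95.7% and 88.3%), none of them called. *Isl1* was at 82.2% in control (adjusted p = 0.0278) and 100% in cKO neurons (adjusted p = 0.981). The scaling assumes that the markers as a group keep their level per neuron, and in these libraries that assumption was not tested. Schwann cell markers fell in 8 of 8 in each culture comparison (720 to 828 CPM in neurons, 2632 to 3794 CPM in naive ganglia).

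Of the 10 members, 3 spanned more than 2-fold across the 6 cultures, as did 24.3% of all 23295 genes tested, a share close to theirs. From the lowest to the highest culture, *Runx3* spanned 5.55-fold, *Shox2* 3.49-fold and *Etv1* 2.29-fold, while the other 7 members spanned 1.13-fold to 1.52-fold. In the 6 naive libraries all 10 members stayed within 1.48-fold. Control replicates 1 and 2 were the lowest cultures in *Runx3*, *Shox2* and *Etv1*. Control replicate 3 was the highest of all cultures in *Shox2* and *Etv1* and within the cKO range in *Runx3*. Replicate 1 was the lowest culture in 3 of 10 members, a share close to the 35.8% of all genes. Replicate 2 was lowest in 1 of 10, against 8.86%.

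Of the 16 other genes of myelinated neurons, 14 were lowest in control replicate 1, which was also the shallowest library, as were 35.8% of all 23295 genes tested. The exceptions were *Spp1* and *Lpl*, lowest in control replicate 3. Control replicate 1 also had the highest summed satellite glia markers (2543 CPM, against 1477 to 1853 CPM in the other 5 cultures) and endothelial markers (1907 CPM against 1282 to 1627 CPM), and their part in the low values was not tested. In 9 of 16 the cultures spanned more than 2-fold, as in 24.3% of all genes (1 of 16 in naive ganglia). Examples chosen after their values were seen are *Pvalb* and *Slc17a7*. *Pvalb* measured 4.88, 11.4 and 46.5 CPM in control and 18.9, 35.8 and 41.3 CPM in cKO cultures, and *Slc17a7*, a vesicular glutamate transporter, 31.9, 54.4 and 132 CPM against 88.6, 119 and 122 CPM. Without control replicate 3, *Runx3* in control neurons changed by -3.29 against naive ganglia instead of -2.39, *Shox2* by -3.27 and *Etv1* by -3.35. In the other direction, the smallest falls over all settings were -1.55 for *Runx3* (limma-trend on FPKM), -2.28 for *Shox2* and -2.55 for *Etv1* (both scaled to pan-neuronal markers), and all were called. Whether the cultures held different numbers of large neurons was not tested.

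**Figure D4:**
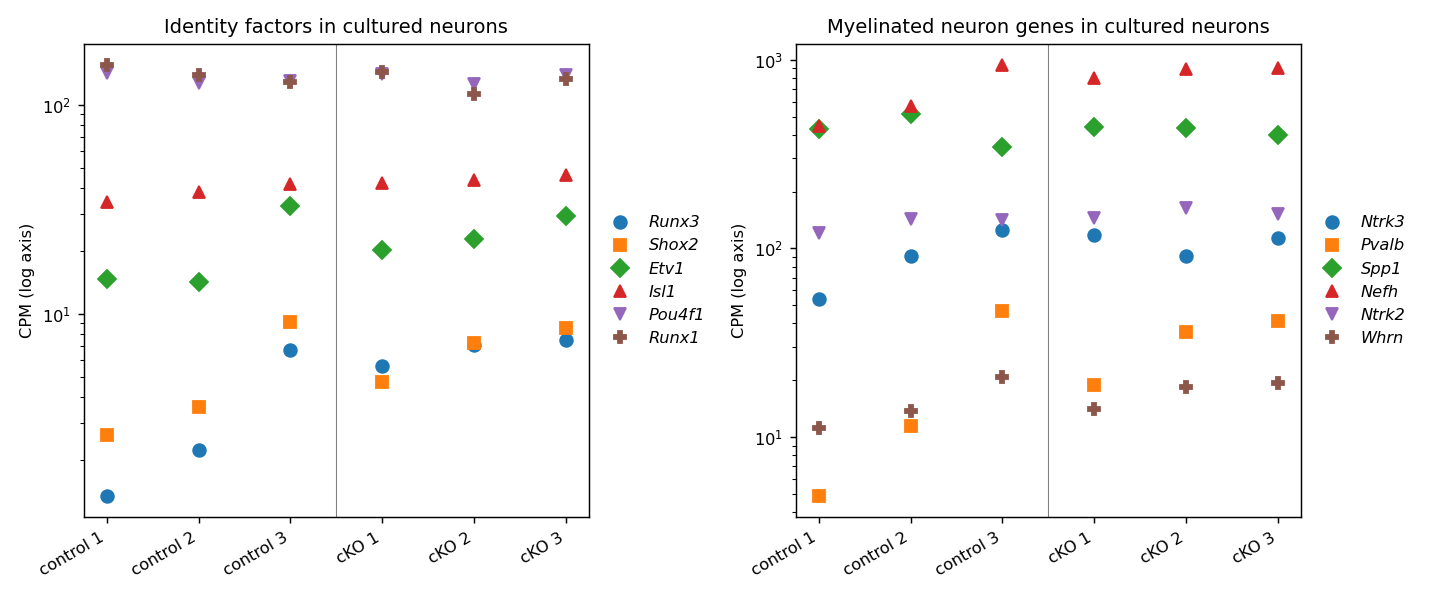
CPM (log axis) in each of the 6 neuron cultures for 6 identity factors (left) and 6 genes of myelinated neurons (right), which were chosen for display after their values were seen. *Runx3*, *Shox2*, *Pvalb* and *Ntrk3* are lowest in control 1, while *Pou4f1* and *Runx1* vary by at most 1.36-fold.

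Of the 35 further sensory transcription factors tested, 26 were called lower and 4 higher in control neurons against naive ganglia (25 and 4 in cKO, median -1.10 and -0.98). *Bcl11b* (Ctip2) fell to 13.6% and *Six4*, an early ganglion factor, to 27.8%, while *Rora* rose to 160% and *Foxp1* to 144%. *Rora* rose and *Isl2* fell after crush as well.

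Of the 16 myelinated-neuron genes 12 were lower and 4 higher in control neurons (10 and 3 in cKO), among the latter the secreted phosphoprotein *Spp1* at 252%. Non-peptidergic genes were 15 lower and 2 higher of 20 (15 and 1 in cKO), with the ATP receptor *P2rx3* at 203%, although it was not called against contralateral ganglia (85.6%). *Ptgdr*, a prostaglandin receptor, fell to 22.4%. Cold and C-fibre touch genes were 6 lower and 1 higher of 8 in control and 6 lower and 2 higher in cKO neurons, while their sum was 227 to 295 CPM in neurons and 199 to 243 CPM in naive ganglia. *Penk*, which encodes the precursor of enkephalin peptides, was at 277% in cKO and 122% (not called) in control neurons, and *Trpm8*, the cold channel, fell to 7.49% in control neurons while *Th*, the enzyme tyrosine hydroxylase of C-fibre touch neurons, rose to 357% against naive but not against contralateral ganglia (94.5%). Of 8 injury genes 6 were higher and 1 lower, with *Atf3* at 762 to 864 CPM in control cultures, and the growth-cone gene *Gap43* fell to 35.6%.

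Across the 10 group means, the members other than *Runx1* and *Tlx3* shared 1 pattern, high in ganglia and low in culture. Pearson's r of mean log2 CPM was 0.98 for *Isl1* with *Shox2*, 0.98 for *Pou4f1* with *Etv1* and 0.99 for *Prdm12* with *Prrxl1*. *Runx1* correlated negatively with each other member, from -0.58 to -0.83, and *Tlx3* with *Etv1* at 0.17. These r describe 10 points dominated by the contrast of culture and ganglia and by the 2 tables, and carry no test.

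Of 14109 genes searched in the same way, the closest to each member had r between 0.974 and 0.998. The most similar pairs were *Slitrk3* and *Paqr7* for *Isl1*, *Parm1* and *Hacd3* for *Pou4f1*, *Wwox* and *Gnai1* for *Etv1*, *Thra* and *Cep250* for *Tlx3*, *Bphl* and *Scn4a* for *Prrxl1*, and *Ddhd2* and *Bhlha9* for *Prdm12*. For *Shox2* they were *Rimkla* and *Galm*, for *Runx3* *Hs3st2* and *Kcnk1*, for *Pou4f2* *Tcte1* and *Chst14*, and for *Runx1* *Slc5a3* and *Mrps6*.

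Ordered by group mean, *Runx1* ran from neurons (141 and 130 CPM) through naive cKO (119 CPM) to ipsilateral sham ganglia (77.6 CPM in cKO), with 3 of 9 neighbouring groups free of overlap. *Prdm12* had the most separate neighbours, 6 of 9, from contralateral sham (226 CPM in cKO) through naive and crush ganglia to neurons (57.5 CPM in cKO). *Pou4f1* had 1 separate step, between ganglia and culture, and *Tlx3* also had 1. For *Pou4f2* the 4 separate steps included naive cKO above naive control (22.2 and 17.2 CPM) and ipsilateral control sham ganglia above crush controls (12 and 10.4 CPM). *Runx3*, *Shox2* and *Etv1* each had 2 separate steps, 1 of them between ganglia and neurons.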

How the data were processed

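Poly(A) RNA libraries (TruSeq Stranded mRNA) were sequenced by the authors. Trim Galore, HISAT2 and featureCounts on mm10 are named in the submitters' processing notes, and their versions and settings were not given in the sources used here. The deposited tables hold raw counts per gene, with 1 table for naive and crush ganglia and 1 for sham ganglia and neurons. The authors also deposited FPKM values, whose gene length was the full gene span for 100.0% of genes within 1%. *Tsix* had 100 to 100.3% of the counts of *Xist* on the other strand, so the counts hold both strands. Of 55401 genes, 54349 (98.1%) had a symbol.

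Counts were tested with edgeR 4.0.16 in R 4.3.3: filterByExpr by group (minimum count 10, minimum total 15), TMM factors, 1 mean per group, the quasi-likelihood test and Benjamini-Hochberg adjustment over all genes, with a call at adjusted p under 0.05. Tests are two-sided. Naive and crush libraries were fitted together, as were neurons alone, sham ganglia alone, neurons with naive ganglia, and neurons with contralateral ganglia. CPM levels use TMM factors over all 26 libraries. Each library is 1 mouse by the labels, and *Runx3* had the lowest count of any member in any library.

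Alternatives were DESeq2 1.42.0, RLE factors, no filter, at least 10 counts in every library, limma-trend 3.58.1 on log2(FPKM + 0.1), scaling to pan-neuronal genes, a replicate block, sex as a covariate, only the groups compared, and leaving out each library. After seeing the data, fits without the 2 libraries of mismatched sex and with crossed sham mouse numbers were added. On simulated counts for crush against naive in control mice (21235 genes), 90% of genes changed by 1 log2 unit were recovered. Of those changed by 2, 100% were recovered. A change of 1 unit was recovered in 62% for the interaction, 83% for both sham genotype comparisons and 91% to 98% in the others. Smaller changes were not simulated, and every gene was given the same spread. The members and all gene lists were chosen with earlier results of these data known. All members are described. Of each other list at most 2 called genes per direction with the smallest p are named, and for likeness the 2 genes with the highest r. *Atf3*, *Gal*, *Ahr* and *Thy1* are named as label checks. Outside this rule, some myelinated-neuron genes are named for their values across cultures, and other genes because they overlap a member. Values of a named gene are also given where it was not called.

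Both sides of a sham mouse come from the same mouse by the labels, so they are paired; the correlation of their deviations was 0.297 in control and -0.208 in cKO mice. For naive and cultured cKO libraries the same-numbered correlations were 0.129, 0.356 and 0.133. For contralateral sham and cultured cKO libraries, with only 2 shared numbers, they were 0.163 and 0.211. In each other pair of groups at least 1 correlation was under 0.1.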

Additional observations from a re-analysis of the deposited data

Results flagged for a closer look

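Among 100 pairs of genotype effects compared, there were 2 in which the libraries of both settings were fully apart in CPM in opposite directions, *Runx1* and *Prdm12*, each between naive and ipsilateral sham ganglia. In naive ganglia all 3 cKO libraries of *Runx1* stood above all 3 control libraries (0.30 on the log2 scale), and in ipsilateral sham ganglia both cKO libraries stood below both controls (77.3 and 77.8 against 82.2 and 80.2 CPM, -0.03). *Prdm12* stood higher in all 3 naive cKO libraries (0.24), and in ipsilateral ganglia both cKO libraries (205 and 203 CPM) stood slightly below both controls (208 and 205 CPM), although the fitted change, on the scale of the sham libraries alone, was 0.02. The differences between these effects were not tested, and none of the 4 effects was called on its own.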

How the results depend on the processing

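With 1 library left out, the crush comparison called 14.4% to 18.9% of all genes in control mice (21.6% with all libraries). In cKO mice the share was 12.3% to 17.4% (18.6% with all libraries). The number of members called then ranged from 4 to 6 in control mice and from 6 to 8 in cKO mice. In cKO mice it was 9 with DESeq2, labelled sex as a covariate or only the groups compared, each adding *Etv1*, and 3 with sex by transcripts as a covariate (1414 genes called over all, against 3962 without it and 2400 without the 2 libraries of mismatched sex). *Etv1* in control mice was lost without crush control replicate 2 (-0.48, adjusted p = 0.0502), and leaving out crush control replicate 1 or 2 reduced the genes called from 4601 to 3157 or 3116. Neurons against naive ganglia gave 9 to 10 members in control and 8 in cKO mice with 1 library left out (9 in cKO mice with limma-trend, only the groups compared or scaling to pan-neuronal genes), and against contralateral ganglia 10 and 8 to 10. Scaled to pan-neuronal genes, the last comparison gave 5 in cKO mice, and values turned positive without a call for *Pou4f1* (0.10 in control, 0.06 in cKO) and *Isl1* (0.0031 in cKO). The sham side comparison gave 1 member with DESeq2 and 1 with no filter, both *Etv1*, and the genotype comparison in ipsilateral ganglia gave 3 with no filter. In the other comparisons leaving out 1 library gave 0 members. With the replicate block, 5 members were called after crush in control mice (*Tlx3* adjusted p = 0.051) and 8 in cKO mice. Under that block the sham side comparison called 0 members and 0 genes over all (1 without it), and 15 genes with the cKO numbers crossed. The block changed no other members' count. Fitting the interaction on only the groups compared was not run, since it is the same fit. The causes of these changes were not tested. *Runx3* had low counts in culture (34 counts in the shallowest library), and the sham design had 2 mice per genotype. What part these have in the calls was not tested. Counting error is only part of the spread, which each fit takes from the libraries.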
